A study of Mus musculus with 16 samples.

Results

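The 78 mRNAs described here carry the names of mitochondrial ribosomal proteins. They are every protein-coding gene in the count table whose mouse symbol begins with Mrpl or Mrps followed by a digit and that had at least 10 reads in 4 or more of the 16 libraries. All 78 candidates passed that minimum, 49 named Mrpl and 29 named Mrps, out of 56980 genes in the table. They were measured by bulk RNA sequencing of mouse kidney cortex in 4 groups of 4 libraries. The iGKO IRI group holds Degs1 iGKO mice (Degs1 fl/fl crossed with Rosa26-CreERT2) after bilateral ischaemia reperfusion injury, in which both kidney pedicles were clamped for 28 min and tissue was taken after 24 h. The fl/fl IRI group holds Degs1 fl/fl littermates after the same injury. The iGKO sham and fl/fl sham groups hold mice of the same 2 genotypes that had the operation without clamping. All animals were male C57Bl/6J mice with floxed Degs1 alleles, all received 3 mg of tamoxifen on each of 5 days at 9 weeks of age, and all were operated on at 12 weeks. The Cre of this line is driven from the Rosa26 locus and is active across tissues, so deletion of Degs1, the desaturase of the last step of ceramide synthesis, was not limited to one kidney cell type. The labels number the replicates of a group without saying how they relate to litters or days, and the p-values given here measure only the spread between these libraries.

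Mitochondria keep their own ribosome, built from RNA encoded in mitochondrial DNA and from proteins that are encoded in the nucleus, translated in the cytosol and imported. It makes only a handful of membrane proteins, all of them core subunits of the respiratory chain and of ATP synthase. Kidney tubule cells, above all those of the proximal tubule, depend on that chain for the energy of salt and solute transport. Names and positions do not match in every case: Mrps30 and Mrps18a sit in the large subunit, which gives 51 members of the large and 26 of the small subunit, and Mrps36 is now known as a component of the oxoglutarate dehydrogenase complex of the citric acid cycle and is kept apart.

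Totals ran between 12704273 and 18816343 counts a library. Degs1 itself averaged 54.5 ± 6.81 CPM (read counts scaled to library size) in iGKO IRI libraries and 113 ± 18.2 CPM in fl/fl IRI libraries, and 56.97 ± 14.26 CPM in iGKO sham against 100.3 ± 12.3 CPM in fl/fl sham libraries (SD, n = 4 each). The genotypes did not overlap after either operation. Degs1 mRNA remained in every iGKO library, at 44.7 to 59.8 CPM in iGKO IRI and 40.2 to 71.7 CPM in iGKO sham. Some libraries stood apart from their group. In iGKO sham 4 the 13 mRNAs encoded in mitochondrial DNA summed to 3147 CPM, against 39902 to 44076 CPM in the other iGKO sham libraries. These 13 were at very unequal levels. Over the iGKO sham libraries mt-Nd5 averaged 6050 CPM, mt-Atp6 20.3 CPM and mt-Atp8 6.67 CPM. The sum therefore follows the most abundant of them and is not a level of each. In fl/fl IRI 1 a list of 17 proximal tubule mRNAs summed to 26916 CPM, while fl/fl IRI 2, 3 and 4 had 11080 to 20491 CPM. The 13 mRNAs of mitochondrial DNA summed to 17334 CPM in fl/fl IRI 1, against 28503 to 31007 CPM in fl/fl IRI 2, 3 and 4. Counts of called members are given with and without iGKO sham 4 and fl/fl IRI 1. The mitochondrial mRNAs were also lowest of their group in iGKO IRI 4 (13052 CPM) and fl/fl sham 2 (28505 CPM). The other libraries of those groups had 18067 to 27075 CPM and 41570 to 43484 CPM. In iGKO IRI 2 a list of 5 fibroblast mRNAs summed to 9875 CPM, against 1060 to 2310 CPM in iGKO IRI 1, 3 and 4. Leaving out iGKO IRI 2 left 4 called members in fl/fl IRI against fl/fl sham and 0 in the other comparisons, as with all libraries.

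Per kilobase of annotated exon the members spanned a wide range. The level averaged over all 16 libraries was highest for Mrpl12, the stalk protein that recruits elongation factors to the ribosome, at 100.5 CPM per kilobase. Mrpl34 and Mrps21 followed at 65.0 and 56.6 CPM per kilobase. The lowest were Mrpl32 and Mrpl53, at 2.20 and 2.29 CPM per kilobase. The median member stood at 11.7, and 61 of the 78 lay between 5 and 50 CPM per kilobase. Exon length here is the union over all annotated transcripts, so a gene with a long, rarely used exon reads low on this scale.

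The members as a whole hardly moved between the 4 groups. Their summed level was 2597 ± 410 CPM in iGKO IRI, 2352 ± 303 CPM in fl/fl IRI, 2648 ± 127 CPM in iGKO sham and 2527 ± 187 CPM in fl/fl sham libraries (SD, n = 4). Single libraries ran from 1992 CPM in fl/fl IRI 4 to 3148 CPM in iGKO IRI 4, so libraries of 1 group differed by more than the groups did, and all groups overlapped. The large subunit outweighed the small one by 2.22 to 2.43 times in every library. Between libraries of a group the median coefficient of variation of a member was 16.2% in iGKO IRI, 20.1% in fl/fl IRI, 15.4% in iGKO sham and 12.7% in fl/fl sham. Over all genes within the members' range of levels it was 16.9%, 25.5%, 22.6% and 13.6% in the same groups.

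**Figure D1:**
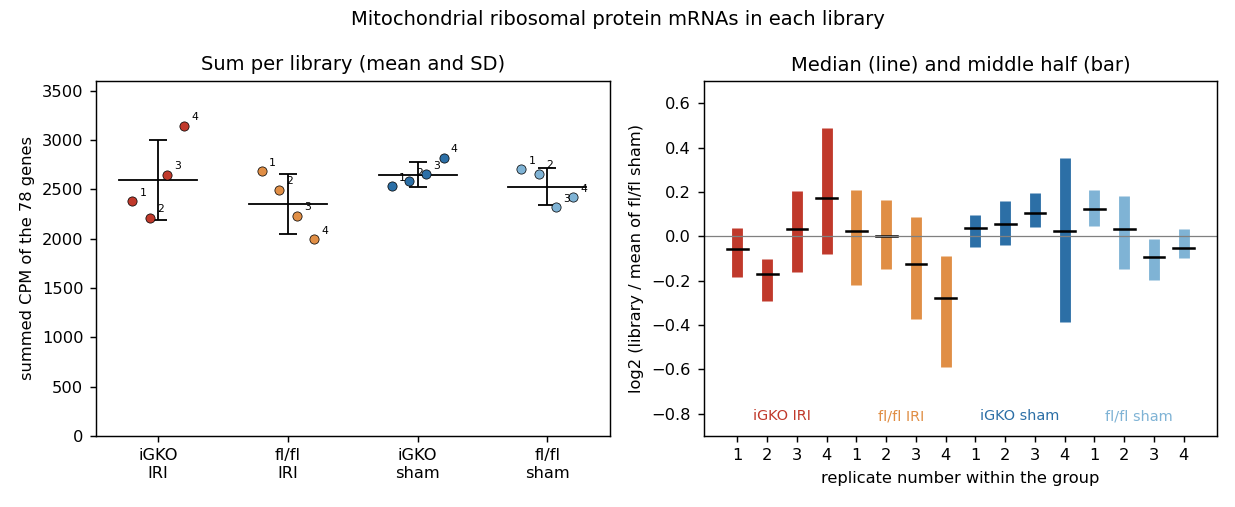
Left, summed CPM of the 78 mitochondrial ribosomal protein mRNAs in each library, numbered by replicate, with the mean and SD of each group (n = 4). Right, the median (line) and the interquartile range (bar) of the members' log2 ratio to the mean of the fl/fl sham libraries, which are their own reference; the bar is widest in iGKO sham 4, from -0.39 to 0.35.

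The spread between members inside a library was less even. Each member was set against its mean in the fl/fl sham libraries. In iGKO sham 4, 27 members lay more than 0.5 log2 from that mean, 14 above and 13 below, although the library's median was 0.02. In iGKO sham 1, 2 and 3 the same count was 1, 0 and 0. Among injured kidneys it was 1, 2, 8 and 25 in the iGKO libraries 1 to 4 and 16, 3, 12 and 31 in the fl/fl libraries 1 to 4. In iGKO IRI 4, 19 of the 25 lay above, whereas in fl/fl IRI 4, 27 of the 31 lay below. The plot of members by library shows these as wide bars.

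Injury in fl/fl kidneys asks what ischaemia and reperfusion do to these mRNAs when Degs1 is intact. Of the 78 members, 2 rose, Mrpl33 and Mrps18b, and 2 fell, Mrpl4 and Mrps21, in edgeR's quasi-likelihood test at an adjusted p under 0.05 (Benjamini-Hochberg over 17972 genes). That is 5.13% of the members, while 15.5% of all genes tested were called in this comparison, 8.46% higher and 7.01% lower in fl/fl IRI. At an unadjusted p under 0.05 there were 10 members (12.8%), beside 30.7% of all genes. DESeq2 called 5 members, the same 4 and Mrps36, beside 20.6% of all genes, and limma voom 7, beside 25.6%. The median member differed by -0.10 on the log2 scale between fl/fl IRI and fl/fl sham, beside 0.01 over all genes, with 57 members below 0 and 21 above. Most differences were small: 70 of 78 were within 0.5 log2, and the median standard error was 0.19. Bulk RNA cannot tell fewer cells of a type from less RNA per cell.

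Mrpl33, a small protein of the large subunit with a bacterial homologue, had 40.8, 46.1, 57.9 and 40.6 CPM in fl/fl IRI libraries, against 25.1, 26.1, 24.9 and 22.9 CPM in fl/fl sham libraries. Every injured fl/fl kidney lay above every sham one, and the log2 fold change was 0.91 ± 0.17 (SE; adjusted p = 0.0034, edgeR). The call held with each of the 16 libraries left out in turn, with adjusted p between 0.00127 and 0.0162. Gm43809, the only annotated gene sharing exon sequence on its strand, had at most 2 reads in a library.

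Mrps18b is one of 3 mammalian descendants of bacterial S18, and in human cells its product is also described as a partner of the retinoblastoma protein. It had 24.6, 39.1, 34.95 and 43.0 CPM in fl/fl IRI libraries, against 24.97, 19.9, 20.7 and 23.5 CPM in fl/fl sham libraries. Libraries 2, 3 and 4 of the injured fl/fl group were above all sham values, while fl/fl IRI 1 lay among them. The log2 fold change was 0.67 ± 0.18 (SE; adjusted p = 0.018, edgeR). It missed the threshold without fl/fl sham 2 (0.051), fl/fl sham 3 (0.0589) or fl/fl IRI 4 (0.0529). An antisense gene, Gm16279, had 14 to 35 reads in a library, against 296 to 680 for Mrps18b. The libraries are stranded per the labels, and the strand setting of the counting is not given in the sources used here. Over all members, 8 had an exon overlapping another gene on the same strand and 28 one on the opposite strand.

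Mrpl4, whose bacterial homologue lines the tunnel through which the new protein leaves, had 58.4, 51.5, 36.4 and 34.8 CPM in fl/fl IRI libraries, against 69.1, 68.2, 69.0 and 65.2 CPM in fl/fl sham libraries. All injured fl/fl kidneys were below all sham ones, with libraries 3 and 4 lowest. The log2 fold change was -0.58 ± 0.15 (SE; adjusted p = 0.0165, edgeR), and it was -0.49 with an adjusted p of 0.0608 without fl/fl IRI 3.

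Mrps21, a small-subunit protein with a bacterial homologue, had 41.6, 35.8, 32.8 and 19.6 CPM in fl/fl IRI libraries, against 53.1, 50.9, 47.7 and 47.9 CPM in fl/fl sham libraries. The groups did not overlap, and fl/fl IRI 4 was lowest. The log2 fold change was -0.62 ± 0.19 (SE; adjusted p = 0.0346, edgeR). This call was the least steady of the 4. It was lost without any single fl/fl sham library, where adjusted p lay between 0.0659 and 0.0827, and without fl/fl IRI 3 (0.0775) or fl/fl IRI 4, where the log2 fold change was -0.44 (adjusted p = 0.0637).

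**Figure D2:**
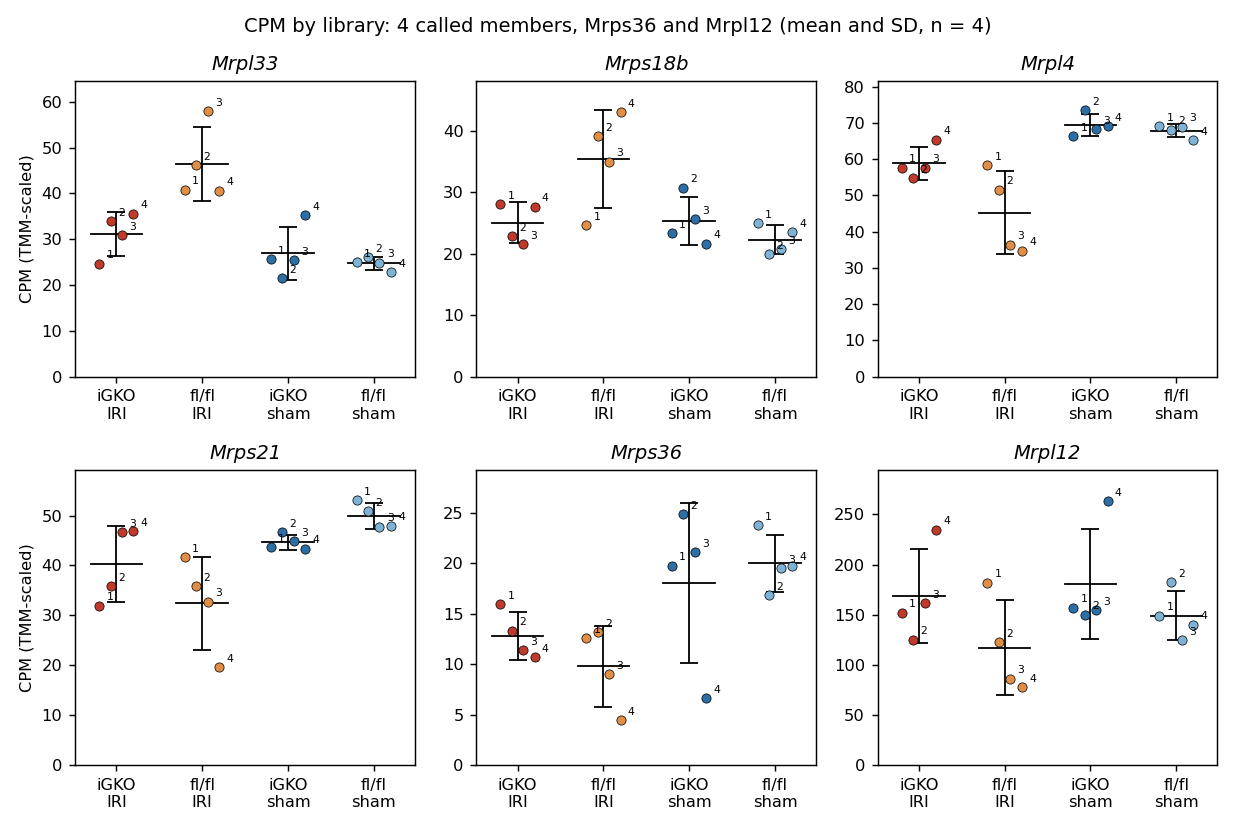
CPM (TMM-scaled) in each library, numbered by replicate, with the mean and SD of each group (n = 4), for the 4 members called between fl/fl IRI and fl/fl sham kidneys and for Mrps36 and Mrpl12. Mrpl33 stood between 40.6 and 57.9 CPM in fl/fl IRI libraries, above every library of the other 3 groups.

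The largest difference among the 78 did not pass. Mrps36 had 12.6, 13.2, 8.99 and 4.49 CPM in fl/fl IRI libraries, against 23.8, 16.9, 19.5 and 19.8 CPM in fl/fl sham libraries. The groups did not overlap, but the log2 fold change of -1.03 ± 0.35 (SE) had an adjusted p of 0.0544 (edgeR). It passed without iGKO sham 4 (adjusted p = 0.015), in which Mrps36 was at 6.67 CPM against 19.8 to 24.9 CPM in the other iGKO sham libraries, and without fl/fl IRI 1 (0.0352). It also passed with the DESeq2 Wald test (0.0239), with limma voom (-0.84, 0.0135) and with no filter on low counts (0.0487). Its 3 annotated pseudogenes are among 5 such pseudogenes of members, none of which had more than 4 reads in a library. Counting members by overlap alone, 2 lay wholly above and 4 wholly below sham in fl/fl kidneys (6 of 78), while 19.5% of all genes tested did not overlap, 9.65% lying above and 9.82% below. The 6 were Mrpl33 and Mrps30 above, and Mrpl4, Mrpl49, Mrps21 and Mrps36 below.

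The promoters of the called members are shown because 3 of the 4 could be matched to the RefSeq promoter table, which covers 250 bases before to 50 after the annotated start on GRCm38.p6. Capitals mark matches on either strand to GCATGCGC (the core of the NRF1 site, a factor known to drive nuclear genes for mitochondrial proteins), CCGGAAG (the ETS family, which includes GABP), AAGATGGC (YY1), CCAAT (NF-Y) and AAGGTCA (ERR receptors). The windows are chr5:31613701-31614000 on the plus strand for Mrpl33, chr17:35916391-35916690 on the minus strand for Mrps18b and chr3:95871465-95871764 on the minus strand for Mrps21.
Mrpl33: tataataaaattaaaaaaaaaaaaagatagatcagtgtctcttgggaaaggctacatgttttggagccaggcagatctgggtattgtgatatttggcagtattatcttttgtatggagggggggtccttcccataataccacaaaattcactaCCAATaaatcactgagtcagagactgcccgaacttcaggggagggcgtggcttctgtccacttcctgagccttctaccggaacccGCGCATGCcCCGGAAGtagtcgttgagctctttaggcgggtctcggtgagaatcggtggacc
Mrps18b: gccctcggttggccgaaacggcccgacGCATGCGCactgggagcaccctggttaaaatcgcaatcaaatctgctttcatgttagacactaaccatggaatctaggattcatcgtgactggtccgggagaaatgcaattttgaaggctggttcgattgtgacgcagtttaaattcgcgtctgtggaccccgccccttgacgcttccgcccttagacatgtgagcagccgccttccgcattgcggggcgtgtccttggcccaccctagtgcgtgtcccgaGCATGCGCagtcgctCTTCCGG
Mrps21: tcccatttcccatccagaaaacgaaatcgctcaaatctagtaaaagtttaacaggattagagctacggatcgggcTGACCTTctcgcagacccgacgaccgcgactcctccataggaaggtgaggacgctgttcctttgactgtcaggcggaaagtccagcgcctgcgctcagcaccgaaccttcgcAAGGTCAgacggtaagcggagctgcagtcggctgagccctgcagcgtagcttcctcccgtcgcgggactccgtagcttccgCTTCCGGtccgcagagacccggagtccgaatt
The NRF1 core and the ETS letters both occur in Mrpl33 and in Mrps18b, the 2 members that rose, and also in Mrpl17 and Mrpl22, which were not called (log2 fold changes 0.39 and -0.09). The window of Mrps21, which fell, holds the ETS letters and, at 2 places, the ERR letters. Over the 69 members with a promoter in the table, 11.6% hold the NRF1 core, 37.7% the ETS letters, 17.4% the YY1 letters, 39.1% CCAAT and 5.80% the ERR letters. Over 17492 protein-coding genes with a promoter the shares are 3.94%, 12.9%, 3.57%, 42.3% and 4.73% in the same order. These matches describe letters in a window and no binding was measured.

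Sorted by place in the ribosome, no class had more than 1 member called in either direction in fl/fl kidneys. In the large subunit 1 of 51 rose and 1 fell, with a median log2 fold change of -0.09. In the small subunit 1 of 26 rose and 1 fell, with a median of -0.12. Of all genes tested, 8.46% rose and 7.01% fell, and of all 78 members 57 estimates were below 0. None of the 5 small-subunit proteins of the decoding centre and the mRNA path was called, although all 5 estimates were below 0 (median -0.26). Mrps12, the homologue of the bacterial protein that sets decoding accuracy, averaged 19.1 ± 3.97 CPM in fl/fl IRI and 20.6 ± 2.59 CPM in fl/fl sham libraries (log2 fold change -0.11 ± 0.20, SE, adjusted p = 0.749, edgeR). Of 6 members listed around the mouth of the exit tunnel, a list that does not hold Mrpl4, 0 were called. Of these 6 estimates 5 were below 0. Mrpl45, which holds the ribosome to the inner membrane, averaged 33.2 ± 9.10 CPM in fl/fl IRI and 34.1 ± 5.25 CPM in fl/fl sham libraries. The 6 proteins of the central protuberance had a median of 0.02, and the 3 of the stalk one of -0.09, with 0 called in both. In the central protuberance 3 estimates were below 0, and in the stalk all 3 were.

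Stalk protein Mrpl12 had 181.9, 122.6, 86.5 and 77.7 CPM in fl/fl IRI libraries, against 148.9, 182.7, 124.8 and 140.0 CPM in fl/fl sham libraries. The first injured library reached the sham range and the other three were below its lowest value. The log2 fold change was -0.35 ± 0.27 (SE, adjusted p = 0.404, edgeR). Mrpl58, a peptidyl-tRNA hydrolase that frees stalled ribosomes and is built into the large subunit, averaged 33.7 ± 7.61 CPM in fl/fl IRI and 36.1 ± 5.25 CPM in fl/fl sham libraries and was not called (-0.10, adjusted p = 0.773).

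The 3 descendants of S18 occupy different sites, Mrps18a in the large subunit and the other two in the small one, and 1 of the 3 was called. Mrps18b rose in fl/fl IRI libraries as given above. Mrps18a averaged 33.5 ± 4.06 CPM in fl/fl IRI and 33.4 ± 2.75 CPM in fl/fl sham libraries, a log2 fold change of 0.00 ± 0.13 (SE, adjusted p = 0.986, edgeR). Mrps18c averaged 13.0 ± 1.13 CPM in fl/fl IRI and 12.4 ± 2.07 CPM in fl/fl sham libraries, a log2 fold change of 0.07 ± 0.21 (SE, adjusted p = 0.867). Gm43511, which shares exon sequence with Mrps18c on the same strand, had 15 to 34 reads in a library, against 99 to 276 for Mrps18c. The difference between paralogues was not tested.

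**Figure D3:**
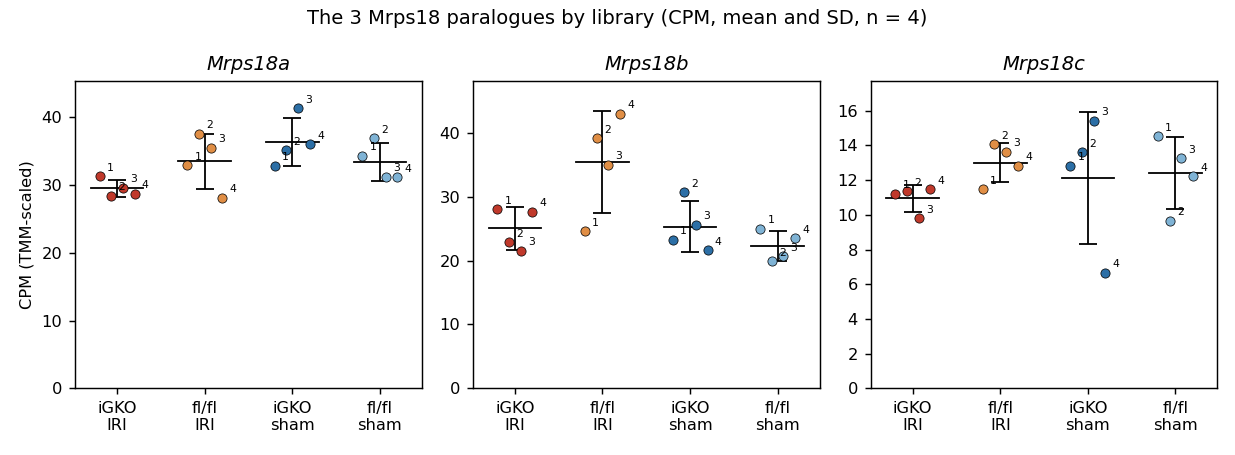
CPM (TMM-scaled) of Mrps18a, Mrps18b and Mrps18c in each library, numbered by replicate, with the mean and SD of each group (n = 4). Mrps18b was at 34.95 to 43.0 CPM in fl/fl IRI libraries 2 to 4 and at 24.6 CPM in fl/fl IRI 1, while Mrps18a and Mrps18c overlapped between fl/fl IRI and fl/fl sham.

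Beside the members, 2 other sets of ribosomal or mitochondrial genes are given for scale. Of 38 nuclear genes named as subunits of complex I, the first enzyme of the respiratory chain, 14 fell and 0 rose in fl/fl IRI against fl/fl sham. Their median log2 fold change was -0.47. The 38 were taken by symbol alone, Ndufa4 and Ndufa4l2 among them, and whether each belongs to the enzyme was not checked. Of 79 cytosolic ribosomal proteins 15 rose and 0 fell, with a median of 0.37. The mitochondrial ribosomal proteins lay between them at -0.10. Of all genes tested, 7.01% were called lower and 8.46% higher in this comparison. Differences between these sets were not tested. Their counts moved with single libraries, as did the share of all genes called. With 1 library left out, 4 to 23 complex I subunits fell and 4 to 32 cytosolic ribosomal proteins rose. The highest counts, 23 and 32, came without fl/fl IRI 1, and without iGKO sham 4 they were 20 and 29. The lowest for complex I came without fl/fl IRI 3 or fl/fl sham 1 (4 each), and for the cytosolic proteins without fl/fl sham 3 (4). Without both fl/fl IRI 1 and iGKO sham 4 the counts were 28 and 48. Of all genes tested, 15.5% were called in either direction with all libraries. The share was 23.6% without fl/fl IRI 1, 20.3% without iGKO sham 4 and 30.2% without both. Markers of cell types moved as well: 9 of the 17 proximal tubule mRNAs fell, summing to 11080 to 26916 CPM in fl/fl IRI and 32358 to 37817 CPM in fl/fl sham libraries, with none at 0. All 7 neutrophil mRNAs rose, summing to 25.02 to 225.2 CPM in fl/fl IRI against 5.45 to 12.1 CPM in fl/fl sham libraries. Their part in the members' differences was not tested.

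**Figure D4:**
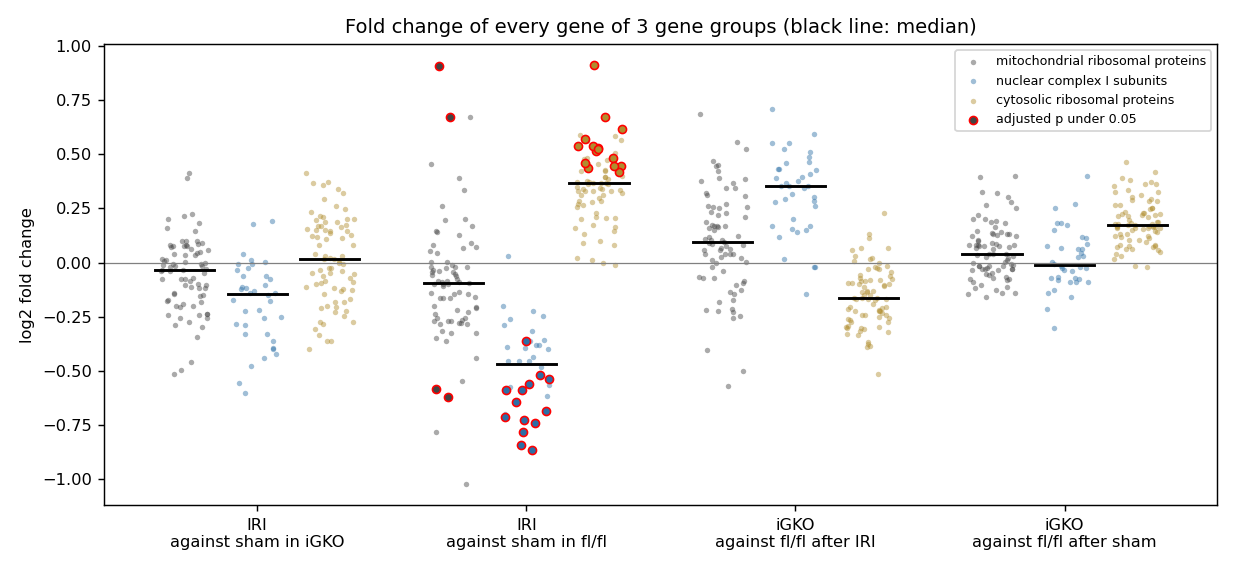
Log2 fold change of every mitochondrial ribosomal protein (78), nuclear gene named as a complex I subunit (38) and cytosolic ribosomal protein (79) in the 4 comparisons. Black lines are at the medians, and red outlines mark adjusted p under 0.05 in edgeR. With all 16 libraries, red outlines appear in the comparison of fl/fl IRI with fl/fl sham alone. They mark 4, 14 and 15 genes of the 3 sets, beside 15.5% of all genes tested. Without fl/fl IRI 1, 7 members, 14 complex I subunits and 1 cytosolic ribosomal protein were also called in iGKO IRI against fl/fl IRI. That fit called 13.6% of all genes tested in the same comparison.

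Leaving out fl/fl IRI 1 changed the count of called members in fl/fl kidneys. Without it 2 members rose and 5 fell, while 23.6% of all genes tested were called. The additional members were Mrps35 (-0.57, adjusted p = 0.0203), Mrps36 (-1.17, 0.0352) and Mrpl34 (-0.86, 0.0358), all log2 fold changes from edgeR. Without both fl/fl IRI 1 and iGKO sham 4, 3 rose and 7 fell, beside 30.2% of all genes. Without iGKO sham 4 alone 2 rose and 4 fell, beside 20.3% of all genes, with Mrps36 and Mrpl42 added to those that fell. In the fit without both libraries Mrpl12 was among those that fell, at -0.63 (adjusted p = 0.032).

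In iGKO kidneys the comparison of IRI with sham asks the same question when Degs1 has been deleted. None of the 78 members was called in edgeR, and neither was any other gene (0% of those tested). At an unadjusted p under 0.05 there was 1 member (1.28%), beside 6.37% of all genes, and DESeq2 called 0 members (0.239% of all genes) and limma voom 2, Mrpl30 and Mrps36 (3.06% of all genes). The median log2 fold change was -0.03, beside -0.02 over all genes, and 77 of 78 members were within 0.5 log2. The estimates reached from -0.52 for Mrpl32, a protein that is matured by the m-AAA protease of the inner membrane, to 0.42 for Mrpl52.

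Mrps18a had the smallest p. It was at 31.3, 28.4, 29.6 and 28.7 CPM in iGKO IRI libraries, against 32.8, 35.2, 41.3 and 35.98 CPM in iGKO sham libraries. The groups did not overlap, but the log2 fold change of -0.30 ± 0.13 (SE) had an adjusted p of 0.717 (edgeR). Next in order were Mrpl16 (-0.26, adjusted p = 0.789), Mrpl17 (0.39, 0.83), Mrpl30 (-0.35, 0.838) and Mrps5 (-0.28, 0.859), none of which passed. Mrpl4, Mrpl21, Mrps18a and Mrps5 lay wholly below sham, 4 of 78, and 0 lay wholly above, where 2.76% of all genes lay below and 2.24% above (5% in all).

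The members called in fl/fl kidneys can be read beside their values here. Mrpl33 averaged 31.2 ± 4.81 CPM in iGKO IRI and 26.9 ± 5.84 CPM in iGKO sham libraries, a log2 fold change of 0.21 ± 0.17 (SE). Mrps18b averaged 25.02 ± 3.32 CPM in iGKO IRI and 25.3 ± 3.95 CPM in iGKO sham libraries, at -0.02 ± 0.17. Mrps21 averaged 40.3 ± 7.61 CPM in iGKO IRI and 44.6 ± 1.48 CPM in iGKO sham libraries, at -0.15 ± 0.19. Mrpl4 had 57.7, 54.7, 57.7 and 65.3 CPM in iGKO IRI libraries, against 66.4, 73.5, 68.3 and 69.1 CPM in iGKO sham libraries, so this member was lower after injury without overlap in both genotypes. Its log2 fold change in iGKO kidneys was -0.24 ± 0.15 (SE, adjusted p = 0.915). Mrps36 had 16.0, 13.3, 11.4 and 10.7 CPM in iGKO IRI libraries, against 19.8, 24.9, 21.1 and 6.67 CPM in iGKO sham libraries. The groups overlapped only through iGKO sham 4, and the log2 fold change was -0.50 ± 0.34 (SE, adjusted p = 0.933). Among the functional examples named earlier, the log2 scale placed Mrpl12 at -0.11, Mrps12 at -0.10, Mrps18c at -0.15, Mrpl45 at 0.00 and Mrpl58 at 0.10, and none passed.

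**Figure D5:**
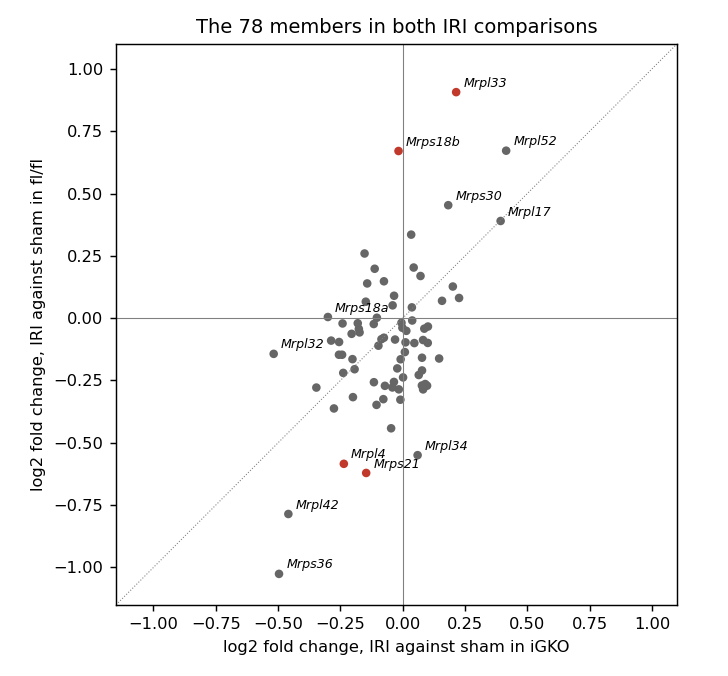
Log2 fold change of each of the 78 members between IRI and sham in iGKO kidneys (x axis) and in fl/fl kidneys (y axis), with the 4 members called in fl/fl kidneys in red and a dotted line of equal change. Mrpl33 (0.21 and 0.91) and Mrps18b (-0.02 and 0.67) lie farthest above that line.

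Whether injured kidneys of the 2 genotypes differ is asked by iGKO IRI against fl/fl IRI. No member was called in edgeR, while 0.851% of all genes tested were, and 6 members (7.69%) had an unadjusted p under 0.05, beside 19.1% of all genes. DESeq2 called 1 member, Mrpl33 (5.24% of all genes), and limma voom 2, Mrpl33 and Mrps18b (8.13% of all genes). The median log2 fold change was 0.09, beside -0.01 over all genes, with 55 members above 0 and 23 below. Mrpl33 was lower in every iGKO IRI library, at 24.7 to 35.5 CPM, than in any fl/fl IRI library, at 40.6 to 57.9 CPM. Its log2 fold change was -0.57 ± 0.17 (SE, adjusted p = 0.101, edgeR). Mrps18b stood at 28.1, 22.8, 21.6 and 27.6 CPM in iGKO IRI libraries, beside the fl/fl IRI values above, and the groups overlapped through fl/fl IRI 1 (-0.50 ± 0.17, adjusted p = 0.148).

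The next members by p were higher in iGKO IRI without passing the test. Mrps35, a small-subunit protein with no bacterial homologue, had 53.7, 38.4, 54.8 and 47.3 CPM in iGKO IRI libraries, against 44.03, 40.4, 27.9 and 27.9 CPM in fl/fl IRI libraries. The log2 fold change was 0.47 ± 0.16 (SE, adjusted p = 0.151, edgeR), and the groups overlapped. Mrpl34, a large-subunit protein with a bacterial homologue, had 30.7, 36.1, 49.0 and 64.9 CPM in iGKO IRI libraries, against 44.3, 31.2, 22.6 and 14.2 CPM in fl/fl IRI libraries. Both groups spread widely, and the log2 fold change was 0.69 ± 0.29 (SE, adjusted p = 0.216). Mrpl4 was at 0.38 ± 0.15 (adjusted p = 0.19). By overlap alone Mrpl49 lay wholly higher and Mrpl33 wholly lower, 2 of 78, where 5.52% of all genes did not overlap, 2.48% lying higher and 3.04% lower. On the log2 scale the other examples stood as follows, with Mrpl12 at 0.52, Mrps12 at 0.23, Mrps18a at -0.18, Mrps18c at -0.25, Mrps36 at 0.39, Mrpl45 at -0.04 and Mrpl58 at 0.26, and none passed.

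This comparison depended on fl/fl IRI 1. Without that library 7 members were called, beside 13.6% of all genes tested. Mrpl4 (0.53, adjusted p = 0.0215), Mrps35 (0.60, 0.0265), Mrpl34 (0.99, 0.0286), Mrpl12 (0.82, 0.0402) and Mrpl51 (0.59, 0.043) were higher in iGKO IRI. Mrps18b (-0.64, adjusted p = 0.0151) and Mrpl33 (-0.63, 0.0308) were lower, all as log2 fold changes from edgeR. Without iGKO sham 4 as well, 10 were higher and 2 lower, beside 20.9% of all genes. Without iGKO sham 4 alone 0 members were called, beside 1.28% of all genes. The proximal tubule mRNAs summed to 20811 to 27847 CPM in iGKO IRI libraries and to 11080 to 26916 CPM in fl/fl IRI libraries, with fl/fl IRI 1 at the top of that range. The neutrophil mRNAs summed to 10.9 to 36.5 CPM in iGKO IRI and 25.02 to 225.2 CPM in fl/fl IRI libraries. Their part in the members' values was not tested.

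Deletion of Degs1 in sham-operated kidneys left no member called. Not one of the 78, nor of all genes tested (0%), passed in iGKO sham against fl/fl sham, 0 members had an unadjusted p under 0.05 (1.17% of all genes did), and DESeq2 and limma voom called 0 members too (0% and 0.0111% of all genes). All 78 log2 fold changes were within 0.5, with a median of 0.04 beside 0.01 over all genes. Mrps28, which had the smallest p, averaged 17.8 ± 5.53 CPM in iGKO sham and 13.5 ± 2.50 CPM in fl/fl sham libraries. Its log2 fold change was 0.39 ± 0.22 (SE, adjusted p = 0.9999, edgeR) and was 0.16 without iGKO sham 4, whose value of 25.9 CPM was the highest of that group. Mrpl11, Mrpl27, Mrps10 and Mrps27 followed, at 0.30, 0.18, 0.19 and 0.26, with the same adjusted p. Mrpl21 and Mrpl27 lay wholly higher and Mrps21 wholly lower, 3 of 78, where 1.93% of all genes did not overlap, 1.05% lying higher and 0.874% lower. Mrps21 was at 43.7, 46.7, 44.8 and 43.4 CPM in iGKO sham libraries, all below the fl/fl sham values given above, with a log2 fold change of -0.16 ± 0.19 (SE). The examples by function lay at small values here, with Mrpl12 at 0.28, Mrps12 at 0.22, Mrps18a at 0.12, Mrps18b at 0.19, Mrps18c at -0.03, Mrps36 at -0.14, Mrpl45 at -0.08 and Mrpl58 at 0.06 on the log2 scale.

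The difference between the injury effects of the genotypes was tested as an interaction, the effect in iGKO minus that in fl/fl. No member passed, nor did any other gene (0% of those tested), and 3 members (3.85%) had an unadjusted p under 0.05, beside 11.3% of all genes. DESeq2 called 0 members (0.623% of all genes) and limma voom 3, Mrps18b, Mrps10 and Mrpl33 (6.47% of all genes). The largest by p were Mrpl33 at -0.69 ± 0.24 (SE, adjusted p = 0.322, edgeR) and Mrps18b at -0.69 ± 0.25 (adjusted p = 0.339). Mrps10 (-0.41, 0.43), Mrps21 (0.47, 0.507) and Mrps18a (-0.30, 0.527) followed. The interaction was estimated for Mrpl12 at 0.24, Mrps12 at 0.01, Mrps18c at -0.21, Mrps36 at 0.53, Mrpl45 at 0.04 and Mrpl58 at 0.20, with none called. Without fl/fl IRI 1 Mrps18b passed, at -0.83 with an adjusted p of 0.0429, the single member to do so where 4.22% of all genes did. Mrpl33 was then at -0.75 (adjusted p = 0.0963). Without iGKO sham 4 as well Mrps18b was again the single member to pass, at -0.89 (adjusted p = 0.0188), beside 8.16% of all genes.

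The other genes of mitochondrial translation were taken from lists by function. In fl/fl kidneys 2 of 14 translation factors fell and 0 rose, a share of 14.3% beside 15.5% of all genes. Gfm2, the elongation factor G homologue that splits the ribosome after translation, averaged 51.4 ± 13.5 CPM in fl/fl IRI and 76.9 ± 4.20 CPM in fl/fl sham libraries (log2 fold change -0.58 ± 0.16, SE, adjusted p = 0.0258, edgeR). Rmnd1, which is needed for mitochondrial translation and in humans is mutated in a disorder that often includes kidney disease, averaged 34.8 ± 16.8 CPM in fl/fl IRI and 61.5 ± 4.71 CPM in fl/fl sham libraries (-0.82 ± 0.24, adjusted p = 0.0302). Gfm1, the factor that moves the ribosome along the mRNA, was at -0.46 and did not pass (adjusted p = 0.0597). Gfm2 and Rmnd1 both missed the threshold without fl/fl sham 1, 3 or 4 or without fl/fl IRI 3 or 4, and Rmnd1 also without fl/fl sham 2 or fl/fl IRI 2, with adjusted p up to 0.0771 for Gfm2 and 0.0963 for Rmnd1. Without fl/fl IRI 1, 5 of the 14 factors fell and 1 rose, beside 23.6% of all genes.

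With all 16 libraries none of the remaining lists had a called gene in fl/fl kidneys, where 15.5% of all genes tested were called. They were 6 mitoribosomal proteins and associated factors with other names, 27 assembly and rRNA modification factors, 20 aminoacyl-tRNA synthetases and partners, 22 genes of mitochondrial transcription and RNA maturation, and the 13 mRNAs of mitochondrial DNA. Their median log2 fold changes were -0.11, -0.04, -0.17, -0.12 and -0.48 in that order. Ddx28, a helicase of large-subunit assembly, was at 0.89 (adjusted p = 0.0556), and Grsf1, an RNA-binding protein of mitochondrial RNA granules, at -0.44 (0.0583). The mitochondrial mRNAs summed to 13052 to 27075 CPM in iGKO IRI, 17334 to 31007 CPM in fl/fl IRI, 3147 to 44076 CPM in iGKO sham and 28505 to 43484 CPM in fl/fl sham libraries. Some of them contributed little to these sums, such as mt-Co2 with a mean of 17.8 CPM in fl/fl IRI and 27.4 CPM in fl/fl sham libraries. In the other 4 comparisons 0 genes of any of these lists were called with all libraries. Almost no gene of any kind was called there, 0.851% of those tested in iGKO IRI against fl/fl IRI and 0% in the rest. Without fl/fl IRI 1, 1 of 27 assembly factors rose and 2 of 20 synthetases and 1 of 22 genes of RNA maturation fell in fl/fl kidneys. Of all genes tested, 23.6% were called there in that fit. In iGKO IRI against fl/fl IRI, 1 translation factor and 1 synthetase were then higher and 1 translation factor lower, beside 13.6% of all genes. The interaction of that fit called 1 translation factor, with a positive estimate, beside 4.22% of all genes. With all libraries the smallest p outside the comparison of fl/fl IRI with fl/fl sham was that of Mrrf, the ribosome recycling factor. Mrrf was at -0.51 in iGKO IRI against fl/fl IRI (adjusted p = 0.0901, edgeR).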

How the data were processed

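Kidney cortex RNA was depleted of ribosomal RNA and made into stranded libraries, per the labels' protocols. The deposited table holds raw counts per gene made by the authors; STAR 2.7.9a, cutadapt 1.16, featureCounts 1.6.3 and DESeq2 1.36.0 and the build GRCm39 are named in the submitters' processing notes. No column was left unmapped. Symbols, gene types and exon lengths came from GENCODE vM21 by gene ID (52073 of 56980 IDs matched; IDs without a symbol held 0.84% to 1.77% of counts), and no coordinates were taken across builds. The members and lists were chosen with earlier results of these data known.

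Genes were kept by filterByExpr and scaled by TMM. edgeR 4.0.16 (R 4.3.3) fitted 1 coefficient per group over all 16 libraries, which share 1 estimate of the spread. The quasi-likelihood test was two-sided, with Benjamini-Hochberg adjustment over all 17972 genes and a threshold of 0.05. The SE given with an edgeR estimate is its absolute log2 fold change divided by the square root of the test's F statistic. Levels are TMM-scaled CPM, per kilobase of exon union where genes are compared. Alternatives were DESeq2 1.42.0, limma 3.58.1 (voom with sample quality weights), DESeq2 size factors, other filters, a replicate block, fits of the compared groups alone and each library left out. Scripts were tested on simulated data. Text names the members called, or the 5 of smallest p, those of highest and lowest level, and 8 fixed members. Mrps30, Mrpl49, Mrpl21, Mrpl22, Mrpl42, Mrpl51, Mrpl52 and Mrps26 were named after their values were seen. No pair of libraries of the same group agreed within sampling noise. Promoters are from RefSeq. Markers of thick ascending limb, collecting duct, distal tubule, podocytes, endothelium, fibroblasts, macrophages and lymphocytes were also counted. In fl/fl IRI against fl/fl sham 3 of 6, 1 of 7, 2 of 5, 0 of 5, 2 of 6, 0 of 5, 0 of 8 and 0 of 2 of them fell, and 0 rose; of 3 tested markers of fat, muscle, adrenal and urothelium 0 were called.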

Additional observations from a re-analysis of the deposited data

Results flagged for a closer look

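Values of 30 named members and of the members' sum were screened in each group of 4 libraries for a library far from the other three (its gap to the nearest, over the group's range, above Dixon's 95% critical value). Of 124 groups 19 exceeded it. Chance gives about 1 in 20 groups, but some of these members were named for their values, so the count cannot be read against that share. In iGKO sham 4, 9 members were high or low. Mrpl12 (263 CPM), Mrps26 (112.2 CPM), Mrpl17 (56.1 CPM), Mrpl52 (51.3 CPM), Mrpl58 (46.8 CPM) and Mrps27 (37.0 CPM) were above the other iGKO sham libraries. For Mrpl12 those stood at 150.1 to 156.9 CPM, and for Mrps26 at 38.3 to 42.5 CPM. Mrpl30 (25.3 CPM), Mrpl45 (25.1 CPM) and Mrpl42 (14.4 CPM) were below them. Screening all 78 members gave 29 such libraries in 312 groups, of which 15 were iGKO sham 4. The mRNAs of mitochondrial DNA are low in that library, as reported above, and their part in these values was not tested.

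Further libraries that stood apart were fl/fl IRI 1 for Mrpl32 (6.29 CPM, low), Mrps26 (69.5 CPM, high) and Mrps28 (20.65 CPM, high), and fl/fl IRI 4 for Mrpl49 (14.5 CPM, low). In iGKO IRI 4 Mrpl16 (27.5 CPM) and Mrpl49 (33.5 CPM) were high, and in iGKO IRI 3 Mrps18c was low (9.79 CPM). Among fl/fl sham libraries, replicate 1 was high for Mrpl16 (29.3 CPM), replicate 2 for Mrps26 (61.2 CPM) and replicate 3 for Mrpl53 (2.10 CPM). In iGKO sham 4, fl/fl IRI 1, iGKO IRI 4 and fl/fl sham 2 the mitochondrial mRNAs were lowest of their group. Mrpl12 was highest of its group in the same libraries (263, 181.9, 234.8 and 182.7 CPM). Mrpl32 was lowest of its group there (4.78, 6.29, 5.07 and 8.95 CPM). Both members were set beside these libraries after their values were seen, and a link was not tested.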

How the results depend on the processing

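The sign of the log2 fold change was followed for the 5 members of smallest p in each comparison, and no alternative tried turned it. For the fixed members named beside them, some with estimates near 0, the sign was not followed. With 1 library left out the members' median lay between -0.12 and 0.02 in iGKO IRI against sham, -0.16 and -0.05 in fl/fl IRI against sham, 0.03 and 0.16 in iGKO against fl/fl after IRI, 0 and 0.08 after sham, and -0.04 and 0.13 for the interaction. The medians of the first and the last of these thus changed sign. In fl/fl IRI against fl/fl sham 4 members were called, beside 15.5% of all genes tested. DESeq2 called 5 (20.6% of all genes), limma voom 7 (25.6%) and the fit without both fl/fl IRI 1 and iGKO sham 4 10 (30.2%). Leaving out 1 library gave 2 to 7, the 7 without fl/fl IRI 1 (23.6%). The fit of the compared groups alone called 2. Where no share of all genes is given, a count of members cannot be set beside it. In iGKO IRI against fl/fl IRI the count of 0 (0.851% of all genes) became 1 with DESeq2 (5.24%) and 2 with limma voom (8.13%). It became 12 without both libraries (20.9%) and 0 to 7 with 1 library left out, the 7 without fl/fl IRI 1 (13.6%). For the interaction it was 3 with limma voom (6.47% of all genes) and 1 without both libraries (8.16%). With 1 library left out it was 0 to 1, the 1 without fl/fl IRI 1 (4.22%). In iGKO IRI against iGKO sham limma voom called 2 (3.06% of all genes), and 0 to 0 were called with 1 library left out. In iGKO sham against fl/fl sham every alternative gave 0. Mrpl4 and Mrps21 also missed the threshold in the fit of the compared groups alone (adjusted p = 0.0676 and 0.0897), and Mrps21 with no filter (0.053).

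Correlations between libraries did not settle whether the replicate numbers pair them. Of 24 pairs with the same number 6 had deviations that correlated above 0.1 (range -0.335 to 0.399). For 7 of the 16 libraries the best partner had the same number. With a replicate block 4 members were again called in fl/fl kidneys, with Mrps36 (adjusted p = 0.0205) in and Mrps21 (0.052) out, and 0 in the other comparisons.

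The median standard error of a member's log2 fold change was 0.19 with 4 libraries a group. It reflects the spread between libraries, and depth was not varied.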

Other observations

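The members' promoters were also set beside their changes. In fl/fl IRI against fl/fl sham the 26 members with the ETS letters had a median log2 fold change of -0.02 and the 43 without them one of -0.15. For the 12 members with the YY1 letters it was -0.19, against -0.09 for the 57 without them. For the 8 members with the NRF1 core it was 0.02, against -0.10 for the 61 without it. The 4 members with the ERR letters had a median of -0.30, against -0.09 for the other 65, and the 27 with CCAAT had -0.11, against -0.09 for the 42 without it. In iGKO IRI against iGKO sham the medians were -0.03 and -0.04 for ETS and -0.08 and -0.03 for YY1, -0.02 and -0.04 for the NRF1 core, -0.11 and -0.03 for ERR, and -0.03 and -0.03 for CCAAT. These are descriptions with no test.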
